A study of Homo sapiens with 42 samples.

Results

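The glycolysis and hypoxia response genes described here were 37 listed genes: glycolytic enzymes, glucose and lactate transporters, and textbook targets of the hypoxia-inducible factors (HIF). They were found by symbol among the 60606 genes of the deposited expression table, all 37 were present, and 35 of them passed the level filter (a mean of at least 1 TPM over the libraries used) that left 14426 genes for testing. TPM, the deposited unit, is a level per transcript length that sums to the same total in each library. The cells were AC16, a human cell line whose labels give the cell type as cardiomyocyte-like, grown in low-glucose medium with fetal bovine serum. Whole-cell polyA RNA was sequenced in 30 libraries, 10 groups of 3. The study asked what follows when the ribosomal protein RPL3 is lowered and when its muscle paralog RPL3L, wild type or with single residue changes, is put in its place.

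All groups received doxycycline at 1 ug/ml. The group shScramble carried a doxycycline-inducible scrambled hairpin, and shRPL3 carried a doxycycline-inducible hairpin against RPL3. The group RPL3L-WT carried the RPL3 hairpin and wild-type RPL3L. The groups G27D, R161W, T189M, P291L, D308N, D308V and R343W carried the RPL3 hairpin and RPL3L with the named residue change. For P291L the labels also call the variant doxycycline-inducible. The hairpin lines were lentivirally transduced populations kept by hygromycin, and the RPL3L lines were made from the RPL3 hairpin line and sorted by fluorescence in the BV421 channel. RPL3L-WT and the variants therefore differ from shRPL3 by a second transduction and a sort as well as by RPL3L, and each line is a single transduced population. The labels do not say that replicates were separate cultures, so p-values measure only the spread between these libraries.

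Glycolysis splits glucose into pyruvate and, with lactate dehydrogenase, into lactate, and it yields ATP without oxygen. When oxygen is short, HIF1A and EPAS1 (HIF-2 alpha) escape hydroxylation by EGLN enzymes and degradation through VHL, pair with ARNT, and bind short DNA elements beside the genes for glucose transporters, glycolytic enzymes, pyruvate dehydrogenase kinase, carbonic anhydrases, angiogenic factors and mitophagy receptors. In heart muscle, which normally burns mainly fatty acids, a shift towards glycolysis accompanies ischaemia and the fetal state.

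The core of the HIF binding element is ACGTG or GCGTG, and both were searched on both strands of the RefSeq promoters (GRCh38.p14), each 250 bases before to 50 after a gene's start. Of the 37 genes 33 had a promoter there; VEGFA, NDRG1, BNIP3L and SLC2A3 did not. At least 1 promoter held either core in 30 of 33 members (90.9%) against 52.4% of all 27305 genes. Counted by promoter, because a gene may have several, this was 41 of 60 (68.3%) against 48.4% of 35116. ACGTG alone was in 25 of 60 member promoters (41.7%) against 21.4%, and GCGTG was in 23 of 60 (38.3%) against 36.5%. Members were listed partly as HIF targets, so this share describes the list. The 60-base stretches below are shown because their genes are among those the comparisons below turn on; capitals mark ACGTG or GCGTG, written as CACGT or CACGC where the core is on the other strand, and CACGTG holds ACGTG on both strands. A match describes the letters and is not shown here to be a bound site. Each is written 5′ to 3′ on the gene's strand.
CA9, chr9:35673868-35673927, plus strand: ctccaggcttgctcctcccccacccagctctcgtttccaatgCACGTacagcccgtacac
BNIP3, chr10:131982018-131982077, minus strand: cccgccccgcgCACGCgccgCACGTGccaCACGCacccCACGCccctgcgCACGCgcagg
P4HA1, chr10:73096921-73096980, minus strand: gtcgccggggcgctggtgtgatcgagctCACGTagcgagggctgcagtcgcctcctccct
PDK1, chr2:172556030-172556089, plus strand: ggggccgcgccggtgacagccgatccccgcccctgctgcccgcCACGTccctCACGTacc
PGK1, chrX:78104021-78104080, plus strand: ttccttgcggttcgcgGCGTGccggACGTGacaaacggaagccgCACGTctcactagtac
LDHA, chr11:18394453-18394512, plus strand: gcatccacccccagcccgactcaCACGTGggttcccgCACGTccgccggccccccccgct
ALDOC, chr17:28576901-28576960, minus strand: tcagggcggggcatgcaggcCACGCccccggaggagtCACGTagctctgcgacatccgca
PFKFB4, chr3:48556938-48556997, minus strand: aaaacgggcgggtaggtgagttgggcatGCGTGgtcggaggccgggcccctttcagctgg
In these stretches BNIP3 held 6 core matches and CA9, P4HA1 and PFKFB4 held 1 each. PGAM1, P4HA2 and EGLN3 held neither core in their promoter windows.

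Several libraries stood apart or went against their labels. The level of 298 pseudogenes of genes outside the list split the libraries into a kind of 24 and a second kind of 6 (RPL3L-WT 1 and 2, G27D 3, R161W 1, T189M 1 and 2), which the labels do not name. The kind was a term in the model behind every test. Between the kinds 3 of the 35 members were higher and 24 lower in the second (median log2 difference -0.25), where 14.5% of all genes were higher and 43.3% lower (median -0.15), with PGAM1 at -0.79, SLC2A1 at -0.65, GAPDH at -0.62 and PKM at 0.49. RPL3 was at 1565, 1534 and 1611 TPM in shScramble and 539, 499.6 and 569.8 in shRPL3. It was at 445, 439 and 673 in RPL3L-WT but at 1059, 1686 and 1570.1 TPM in the libraries labelled R161W and 779.7, 802 and 1246 in those labelled T189M, so R161W did not show the low RPL3 that its label names. In limma, RPL3 was 1.25 (log2) higher in R161W and 0.85 higher in T189M than in RPL3L-WT. The library shRPL3 3 held 121 TPM of RPL3L, against 0.029 and 0.0353 in shRPL3 1 and 2, and each comparison with shRPL3 was repeated without it. Of 15 cardiomyocyte markers none had a mean of 1 TPM, and 13, among them MYH6, MYH7, TNNT2 and ACTN2, were under 1 TPM in every library. All 9 fibroblast markers had a mean of at least 1 TPM, POSTN only just (1.11 TPM). So did 4 of 6 smooth muscle markers and 3 of 5 epithelial markers, with KRT18 at a mean of 261 TPM. No total read count comes with TPM, so depth is unknown.

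Levels of the members ran over a wide range (the heat map of the members by library). GAPDH, which oxidises glyceraldehyde 3-phosphate, was highest at 7055, 6857 and 6972 TPM in the shScramble libraries. With ENO1, PKM, TPI1, LDHA, ALDOA and MIF it made up the 7 members with a mean over 1000 TPM. A further 8 had a mean of 100 to 1000 TPM, 15 of 10 to 100, and 5 of 1 to 10: PDK1, ANKRD37, CA12, CA9 and ALDOC. ANGPTL4 (mean 0.862 TPM) and EGLN3 (0.0156 TPM) fell under the filter, and EGLN3, a HIF-induced prolyl hydroxylase, was between 0 and 0.137 TPM in the 30 libraries. The 16 glycolytic enzymes together held 1.95% ± 0.0268 (SD, n = 3) of all TPM in shScramble and 1.68% ± 0.0335 in shRPL3. In RPL3L-WT they held 1.33, 1.28 and 1.58%, and the lowest were the second-kind libraries. P291L was at 1.60% ± 0.0261, D308N at 1.47% ± 0.0312, D308V at 1.52% ± 0.0234 and R343W at 1.56% ± 0.0395. The enzyme share was thus below that of shScramble in every library of the other groups. The construct sequences took 1.81 to 3.89% of TPM in the RPL3L lines, and their part in the share was not tested. In such bulk libraries fewer cells expressing a gene and less RNA per cell cannot be told apart, and genes with pseudogene copies, such as GAPDH, PGAM1, PGK1, LDHA, ENO1 and TPI1, have uncertain values.

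**Figure D1:**
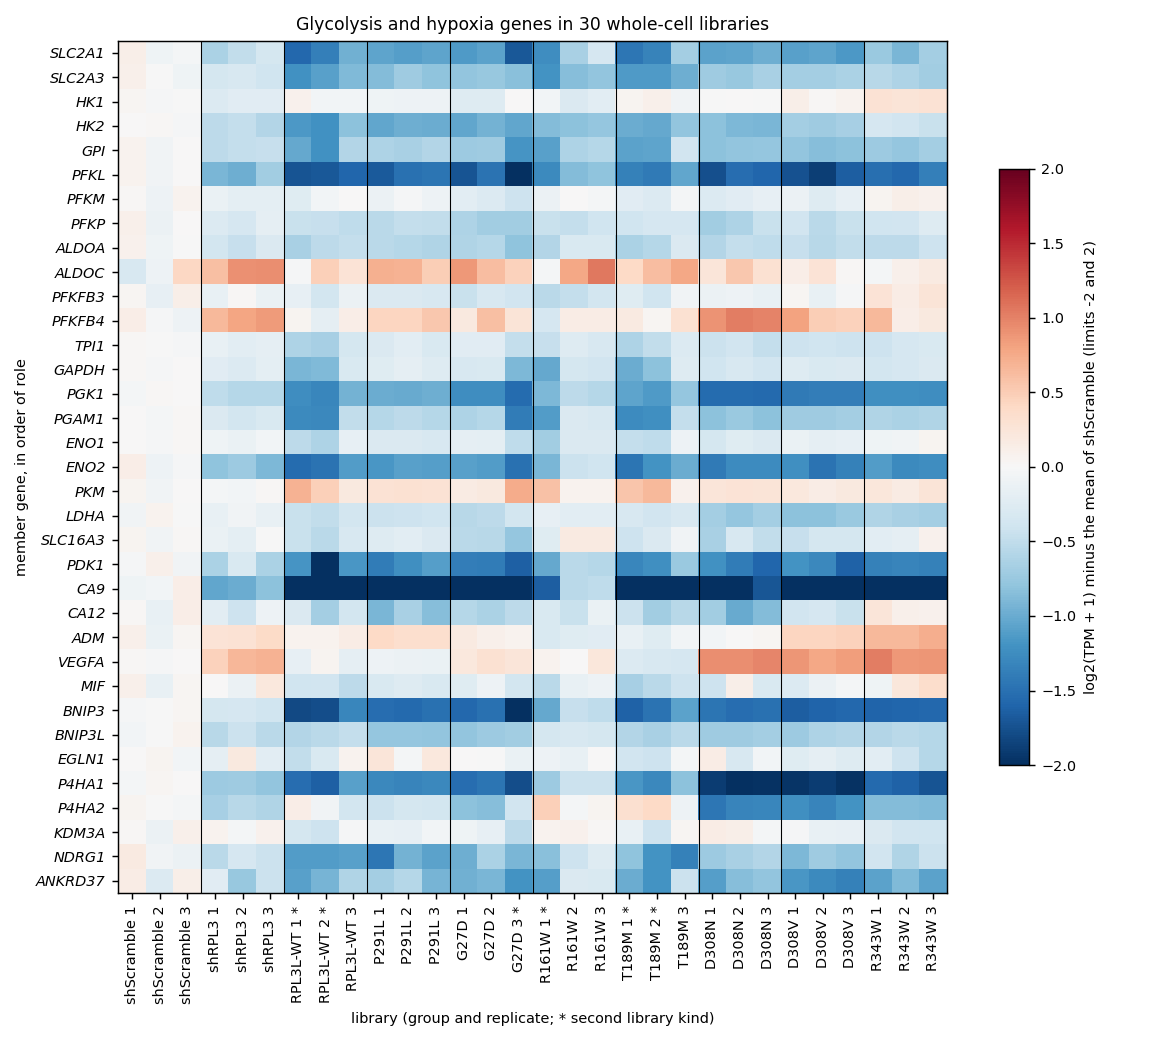
Level of the 35 tested members (rows, by role) in each of 30 libraries (columns), as log2(TPM + 1) minus the mean of shScramble, on a colour scale limited to -2 and 2; asterisks mark the 6 second-kind libraries. CA9, BNIP3, P4HA1, PGK1 and PFKL are blue in all libraries outside shScramble, and VEGFA is red in D308N, D308V, R343W and shRPL3.

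In the RPL3 knockdown most genes of the list were lower than in the scrambled control, and a few were higher. Of 35 tested members 24 were lower and 4 higher in shRPL3 than in shScramble (adjusted p under 0.05, limma), where 48.9% of all 14426 genes were called, 24.5% lower and 24.4% higher. The median log2 fold change was -0.26 over the members and -0.01 over all genes. Without the kind term 15 were lower and 4 higher, with the same medians. Fold changes compare log2(TPM + 1) values, so those of genes at low TPM, such as CA9 and ALDOC, come out smaller than the ratio of their TPM.

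Among the enzymes from glucose to the first triose, 7 of 8 were lower. PFKL, the liver-type phosphofructokinase subunit, was at 83.3, 74.9 and 79.3 TPM in shScramble and 41.4, 39.8 and 48.3 in shRPL3 (log2 fold change -0.86, SE 0.086, adjusted p = 1.24e-08). The groups were well apart, with shRPL3 at 54.5% of the shScramble mean. HK2, the inducible hexokinase, fell by 0.53, while the constitutive HK1 fell by 0.24 and PFKM by 0.17. ALDOC, the aldolase of brain, went the other way: it rose from 0.627, 0.886 and 1.71 to 2.06, 2.8 and 2.87 TPM (log2 fold change 0.81, SE 0.19, adjusted p = 0.000867). Both groups had low levels and every shRPL3 library was above every shScramble library.

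From triose to lactate, 7 of 8 enzymes were lower. ENO2, the neuronal enolase, was at 95.2, 81.3 and 85.5 TPM in shScramble and 49.4, 52.5 and 46.1 in shRPL3 (log2 fold change -0.81, SE 0.073, adjusted p = 2.32e-09). The ubiquitous ENO1 fell by only 0.10, from 2746, 2708 and 2772 to 2569.7, 2502 and 2628 TPM. PGK1, the first ATP-yielding enzyme of the pathway, was at 994, 1039.7 and 1022 TPM in shScramble and 714, 686 and 687 in shRPL3 (log2 fold change -0.55, SE 0.026, adjusted p = 2.89e-14). LDHA, which reduces pyruvate to lactate, was at 1826, 1996 and 1908 TPM in shScramble and 1728, 1823 and 1713 in shRPL3 (log2 fold change -0.12, SE 0.043, adjusted p = 0.0222). The LDHA groups did not overlap, but the call was lost without the library kind term, without the level filter, with these 2 groups only, or without shScramble 2, shRPL3 1 or shRPL3 3. PKM was not called (1762, 1609 and 1695 TPM in shScramble and 1641, 1629 and 1713 in shRPL3, overlapping).

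SLC2A1, the basal glucose transporter GLUT1, was at 142, 122 and 127 TPM in shScramble and 83.7, 92.5 and 101 in shRPL3 (log2 fold change -0.49, SE 0.08, adjusted p = 1.81e-05). Without the kind term that call was lost. SLC2A3 also fell, by 0.35, and the lactate exporter SLC16A3 was not called (log2 fold change -0.11). Of the genes that set the direction of flux, PDK1, which switches off pyruvate dehydrogenase, was at 19.5, 21.4 and 19 TPM in shScramble and 12.6, 16 and 12.5 in shRPL3 (log2 fold change -0.52, SE 0.15, adjusted p = 0.00637). PFKFB4 and PFKFB3 make and break fructose 2,6-bisphosphate, the activator of phosphofructokinase. PFKFB4 rose from 16, 14.2 and 13.4 to 23.4, 25.9 and 27.1 TPM (log2 fold change 0.77, SE 0.12, adjusted p = 1.07e-05), with no overlap. PFKFB3 was at 24.3, 20.9 and 25.8 TPM in shScramble and 21.2, 24.1 and 21.5 in shRPL3, and its groups overlapped (log2 fold change -0.08, adjusted p = 0.40).

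Outside glycolysis, CA9, the acid-exporting carbonic anhydrase of hypoxic cells, was at 8.45, 8.63 and 10.0 TPM in shScramble and 3.88, 4.04 and 4.67 in shRPL3 (log2 fold change -0.95, SE 0.24, adjusted p = 0.00178). Each shRPL3 library was lower than each shScramble library; with a pseudocount of 0.1 the fold change was -1.09 and was not called. P4HA1 and P4HA2 are catalytic subunits of collagen prolyl 4-hydroxylase. P4HA1 was at 177, 188 and 184 TPM in shScramble and 110.5, 112 and 105 in shRPL3 (log2 fold change -0.74, SE 0.055, adjusted p = 8.1e-11). P4HA2 was at 79.9, 76.6 and 74.7 TPM in shScramble and 48.1, 51.9 and 50.7 in shRPL3 (log2 fold change -0.61, SE 0.052, adjusted p = 1.08e-09). Neither gene's groups overlapped. The mitophagy receptors BNIP3 and BNIP3L fell by 0.37 and 0.51, NDRG1 by 0.43 and ANKRD37 by 0.47.

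The secreted factors went up or did not change past the threshold. VEGFA, the main angiogenic growth factor, rose from 62.9, 60.5 and 61.8 to 85.1, 98.4 and 101 TPM (log2 fold change 0.61, SE 0.064, adjusted p = 2.65e-08). Every shRPL3 library was higher than the shScramble libraries. ADM, the vasodilator adrenomedullin, rose by 0.31 and MIF was not called. VEGFA and ADM are HIF targets in textbooks, as are CA9, PDK1 and BNIP3, which fell in the same libraries. Without shRPL3 3 the counts were 23 lower and 4 higher.

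With wild-type RPL3L added to the knockdown, most members that changed were lower again, further from the shScramble level, while VEGFA and PFKFB4 were back near it. In RPL3L-WT against shRPL3, 18 members were lower and 4 higher, where 26.4% of all genes were called, 20.1% lower and 6.27% higher. The median was -0.20 over the members and -0.10 over all genes. Median-ratio scaling moved the median of all genes to 0.005 and that of the members to -0.09, with 13 members lower and 4 higher. Without the kind term the medians were -0.46 and -0.19, with 25 lower and 3 higher. Without RPL3L-WT 3, the only library of this group that is of the same kind as shRPL3, 13 were lower and none higher (0 of 35 in limma). The 4 higher calls therefore rest on that library. The share of all genes called without it is not given here, so the loss cannot be read as particular to the members. Without shRPL3 3 there were 16 lower and 2 higher.

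BNIP3 was at 188, 190.2 and 182 TPM in shRPL3 and 68.1, 69.9 and 96.9 in RPL3L-WT (log2 fold change -0.93, SE 0.041, adjusted p = 1.04e-13). The 3 RPL3L-WT libraries were all lower, and the second-kind libraries 1 and 2 were the lowest. CA9 was at 0.28, 1.25 and 0.855 TPM in RPL3L-WT (log2 fold change -1.18, SE 0.26, adjusted p = 0.00199). This was below every shRPL3 library, and the call was lost without RPL3L-WT 3 (log2 fold change -0.87). VEGFA, which the knockdown had raised, was at 54.8, 63.9 and 54.5 TPM (log2 fold change -0.72, SE 0.071, adjusted p = 1.03e-07). That is near the shScramble libraries, at 93.5% of their mean.

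PDK1 was at 8.23, 3.95 and 8.38 TPM in RPL3L-WT (log2 fold change -0.67, SE 0.17, adjusted p = 0.00534). NDRG1, a stress-induced differentiation gene, was at 62.8, 72.6 and 68 TPM in shRPL3 and 41.6, 41.8 and 42.5 in RPL3L-WT (log2 fold change -0.63, SE 0.16, adjusted p = 0.00551). Both had no overlap between groups. SLC2A1 was at 43.2, 49.6 and 66.6 TPM (log2 fold change -0.38, SE 0.09, adjusted p = 0.00321), a call lost without RPL3L-WT 3. LDHA was at 1403, 1349 and 1472 TPM (log2 fold change -0.33, SE 0.048, adjusted p = 2.48e-05), and all 3 libraries were under those of shRPL3. PFKFB3 was at 20.9, 18.1 and 21.8 TPM and was not called. The higher members were HK1 (0.12), PKM (0.15), PFKM (0.18) and P4HA2 (0.21). PKM, pyruvate kinase, was at 2725, 2341 and 1940.2 TPM, with the second-kind libraries 1 and 2 far above the third.

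Across both steps 15 members were lower after the knockdown and lower again with RPL3L-WT (the plot of both steps by member), as were 2.85% of all genes. HK1, PFKM and P4HA2 fell in the first step and rose in the second (3.68% of all genes). VEGFA, ADM and PFKFB4 did the reverse (10.3% of all genes). The comparisons share the shRPL3 libraries, so their directions are not independent. Relative to shScramble, RPL3L-WT held CA9 at 8.8%, PFKL at 30.6%, BNIP3 at 32.5%, PDK1 at 34.3%, P4HA1 at 37.7% and PGK1 at 45% of the mean. HK1 stood at 99.6%, P4HA2 at 94.2% and PFKFB4 at 100.4%. These percentages use the mean of all 3 RPL3L-WT libraries, 2 of them of the second kind, without adjustment for kind. In RPL3L-WT 3, of the first kind, P4HA2 was at 59.8 TPM against a shScramble mean of 77.1. BNIP3 was at 96.9 against 241 and P4HA1 at 85.7 against 183, nearer to shScramble than the percentages show.

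**Figure D2:**
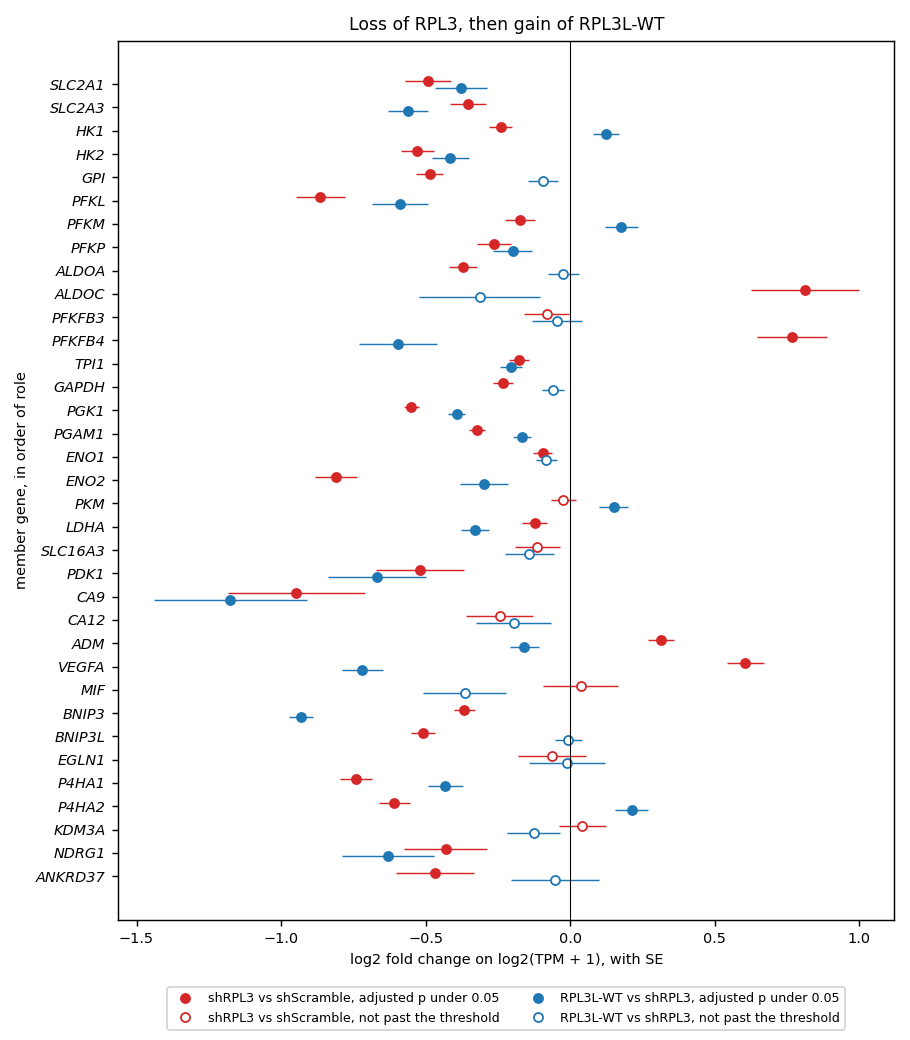
Log2 fold change (points, with SE) of each tested member in shRPL3 against shScramble (red) and in RPL3L-WT against shRPL3 (blue), with filled points past the threshold. Most members lie left of 0 in both, with CA9 at -0.95 and -1.18, while VEGFA (0.61 and -0.72) and PFKFB4 (0.77 and -0.60) cross from right to left.

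The variant lines whose libraries were all of the first kind gave a second view of the same step. Against shRPL3, P291L had 22 members lower and 3 higher (35.8% of all genes called, 27.3% lower and 8.52% higher). D308N had 24 and 3 (33.4%, 22.2% lower and 11.2% higher), D308V 21 and 4 (32.1%, 22.4% and 9.67%) and R343W 20 and 7 (35.5%, 22.8% and 12.7%). The median over the members was -0.26, -0.33, -0.23 and -0.24, against -0.10, -0.05, -0.07 and -0.06 over all genes. With median-ratio scaling P291L had 15 lower and 7 higher, D308N 22 and 3, D308V 16 and 4 and R343W 17 and 9. The median over the members was then -0.15 in P291L, -0.26 in D308N, -0.15 in D308V and -0.18 in R343W. That of all genes in P291L moved to 0.005. Without shRPL3 3 the lower and higher counts were 20 and 3, 23 and 3, 18 and 4, and 18 and 7.

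The same 12 of 35 members were lower in RPL3L-WT and in these 4 lines, as were 4.32% of all genes: SLC2A1, SLC2A3, PFKL, TPI1, PGK1, PGAM1, ENO2, LDHA, PDK1, CA9, BNIP3 and P4HA1. All 12 were also lower in shRPL3 than in shScramble, as were 1.2% of all genes in these 6 comparisons. HK1 and PKM were higher in all 5 lines, as were 1.18% of all genes. Without the kind term no member was called higher in P291L (0 of 35, limma). The RPL3L-WT calls of both genes were lost without RPL3L-WT 3. The 5 comparisons share the shRPL3 libraries, so this is 1 set of control libraries seen against 5 lines.

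BNIP3 was at 83.1, 81 and 85.2 TPM in P291L, 86.7, 83.4 and 84.9 in D308N, 76.5, 79.1 and 80.5 in D308V and 78.8, 79.7 and 80.6 in R343W. These narrow ranges all lay far under shRPL3, with log2 fold changes of -1.16, -1.13, -1.24 and -1.22 (adjusted p of 1.71e-16, 5.44e-17, 1.32e-17 and 1.35e-17, limma). CA9 was at 0.629, 0.532 and 0.961 TPM in P291L, 0.664, 0.461 and 2.06 in D308N, 0.335, 0.0899 and 0.127 in D308V and 1.08, 0.766 and 1.34 in R343W, with log2 fold changes of -1.61, -1.41, -2.14 and -1.34. D308V had the lowest CA9, at 2.0% of the shScramble mean. P4HA1 was at 48.3, 41.9 and 45.7 TPM in D308N (log2 fold change -1.25, SE 0.055, adjusted p = 1.3e-14). It was at 46.2, 48.4 and 45.9 in D308V and 61.7, 59.1 and 54.7 in R343W, with log2 fold changes of -1.20 and -0.89. NDRG1 was at 32.9, 46.9 and 43.2 TPM in P291L (log2 fold change -0.73, SE 0.14, adjusted p = 0.00036).

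PDK1 ranged from 5.80 to 8.77 TPM in these 4 lines, under every shRPL3 library. LDHA was at 1412, 1439 and 1446 TPM in P291L and 1078, 1075 and 1136 in D308V, log2 fold changes of -0.29 and -0.68. SLC2A1 was lower in all 4, by 0.59 in P291L and 0.28 in R343W, and the calls in D308N and R343W were lost without the kind term, the one in R343W also without shRPL3 3 or R343W 2. HK1 was highest in R343W, at 141, 137 and 141 TPM (log2 fold change 0.52, SE 0.04, adjusted p = 4.06e-10). VEGFA differed between the lines: it was at 57.8, 56.7 and 56.2 TPM in P291L, a log2 fold change of -0.72, but higher than in shRPL3 by 0.34 in D308N, 0.23 in D308V and 0.32 in R343W. Without shRPL3 1 the call in D308V was lost. PFKFB3 was higher in R343W (0.31) and was lower in P291L (-0.22), the second a call lost under scaling, without the kind term or filter, and without shRPL3 2 or any P291L library.

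**Figure D3:**
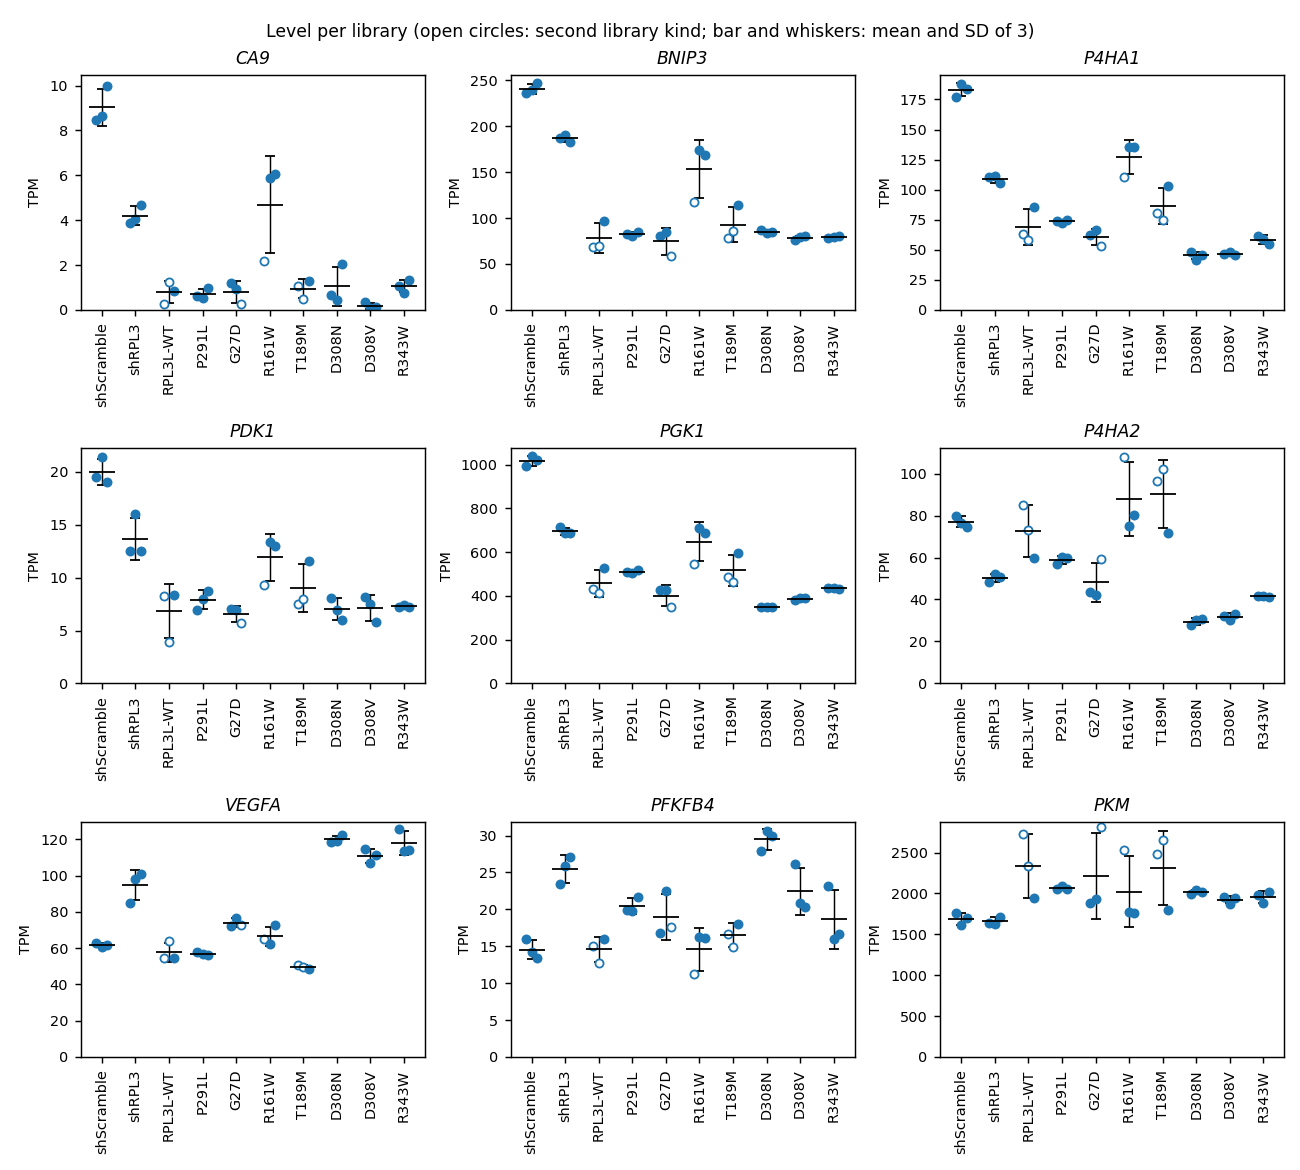
Level in TPM of 9 members in every library by group, with the mean and SD of 3 libraries; open circles are second-kind libraries, and each axis starts at 0. CA9, BNIP3, PDK1, PGK1 and P4HA1 step down from shScramble through shRPL3 to most RPL3L lines, where the mean of R161W is above those of the other RPL3L lines, and VEGFA is highest in D308N, D308V and R343W.

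Against RPL3L-WT, P291L and T189M had the fewest members called. G27D had mostly lower members, the R161W libraries mostly higher ones, and D308N, D308V and R343W changes both ways. All 7 comparisons share the RPL3L-WT libraries, 2 of which are of the second kind. BNIP3 was called in all 7 with the kind term, and PGK1, ADM, VEGFA, P4HA1 and P4HA2 in 6. In P291L, D308N, D308V and R343W its libraries overlapped RPL3L-WT, and without the term BNIP3 changed sign and was not called. ALDOC, GAPDH and EGLN1 were called in none (0 of 7 comparisons, limma). The shares of all genes called in as many of the 7 are not given here, so these counts only describe the members.

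In P291L, 2 members were lower and 1 higher than in RPL3L-WT, where 1.98% of all genes were called, 1.16% lower and 0.825% higher. BNIP3L fell by 0.26 and ADM rose by 0.21. BNIP3 was lower by 0.23 with the kind term, but its libraries (83.1, 81 and 85.2 TPM) lay between RPL3L-WT 1 and 2 and RPL3L-WT 3, and without the term the log2 fold change was 0.10 and not called. Of the 35 members 12 had an unadjusted p under 0.05. In G27D, 10 were lower and 2 higher (10.3% of all genes called, 6.02% lower and 4.31% higher), with P4HA2 at -0.43 and VEGFA at 0.36. VEGFA was at 72, 76.7 and 73 TPM in G27D, all above RPL3L-WT. Without the kind term the G27D count was 3, and with the first-kind libraries only it was 7. In T189M, 5 were higher and 2 lower (10.6% of all genes called, 7.51% higher and 3.08% lower), so the calls of all genes also leaned higher. Without the kind term 1 member was lower in T189M and none higher (0 of 35, limma). PFKL was at 30.5, 28.9 and 37.9 TPM (log2 fold change 0.40, SE 0.086, adjusted p = 0.00423), above all RPL3L-WT libraries. With the first-kind libraries only, where each group has 1 library assumed to vary like the rest, none of the 35 was called in T189M by limma and 9 had an unadjusted p under 0.05.

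In the libraries labelled R161W, 18 members were higher and 4 lower than in RPL3L-WT (25.0% of all genes called, 16.1% higher and 8.87% lower). With median-ratio scaling the split was 13 higher and 6 lower. CA9 was at 2.2, 5.87 and 6.04 TPM (log2 fold change 1.42, SE 0.24, adjusted p = 0.000149). All 3 were above RPL3L-WT, with the second-kind library 1 the lowest. BNIP3 was at 118, 174 and 169 TPM (log2 fold change 0.79, SE 0.038, adjusted p = 3.46e-13), and P4HA1 at 111, 135 and 136 TPM (log2 fold change 0.77, SE 0.057, adjusted p = 6.36e-10). PDK1 (0.62), ENO2 (0.66), PFKL (0.58) and NDRG1 (0.58) were also higher. LDHA was at 1703, 1657 and 1653 TPM (log2 fold change 0.25, SE 0.044, adjusted p = 0.000184). ADM (-0.39), PFKFB3 (-0.29), HK1 (-0.12) and ENO1 (-0.12) were lower, ENO1 turning to 0.01 and not called without the kind term. The PFKFB3 call was lost without the kind term or with the first-kind libraries only. SLC2A1 was higher by 0.34 and VEGFA by 0.21. The SLC2A1 call was lost without the kind term or without RPL3L-WT 3, and that of VEGFA under scaling, without the filter and without RPL3L-WT 1, RPL3L-WT 3 or R161W 3. R161W 2 and 3 held 1686 and 1570.1 TPM of RPL3, near the shScramble level, and 5.87 and 6.04 TPM of CA9. R161W 1, the only second-kind library of the group, held 1059 TPM of RPL3 and 2.2 of CA9. The second kind itself was lower in both genes, by 0.64 in RPL3 and 0.59 in CA9. In T189M, where RPL3 was also higher than in RPL3L-WT (0.85), CA9 was at 1.07, 0.473 and 1.28 TPM and was not called (0.13, adjusted p = 0.79). The fibroblast marker sum was 2759 to 3196 TPM in R161W, above the 2323 to 2517 of RPL3L-WT. It was also above RPL3L-WT in P291L (2705 to 2817 TPM) and T189M (2602 to 2774 TPM). The part of RPL3 and of these markers in the result was not tested.

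The D308N, D308V and R343W lines shared 7 members called lower than in RPL3L-WT and 2 called higher. VEGFA and SLC2A3 were higher in all 3 (2 of 35), no larger a share than the 8.09% of all genes that were. GPI, PGK1, PGAM1, LDHA, BNIP3, P4HA1 and P4HA2 were lower in all 3, where 5.03% of all genes were; these shares come from comparisons that share the RPL3L-WT libraries. D308N had 13 lower and 4 higher (30.3% of all genes called, 12.8% lower and 17.5% higher), D308V 13 and 6 (28.9%, 12.7% lower and 16.2% higher), and R343W 9 and 10 (31.4%, 12.6% lower and 18.8% higher). The median over the members was -0.15, -0.13 and -0.03, against 0.04, 0.02 and 0.04 over all genes. With scaling D308N had 16 lower and 2 higher. Without the kind term D308N had 6 lower and 5 higher, D308V 3 and 5, and R343W 2 and 13, so the split between directions depended on that term. BNIP3, GPI and PGAM1 overlapped RPL3L-WT in all 3 lines and turned positive without the term (BNIP3 from -0.20 to 0.14 in D308N, -0.31 to 0.03 in D308V and -0.29 to 0.04 in R343W), none of them then called. With first-kind libraries only, these 3 genes stayed negative in every line, against RPL3L-WT 3 alone.

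VEGFA was at 119, 119 and 122 TPM in D308N, 114, 107 and 111 in D308V and 126, 114 and 114 in R343W. All 9 libraries were above those of the other 7 groups. The log2 fold change against RPL3L-WT was 1.06 in D308N (SE 0.071, adjusted p = 4.55e-11), 0.95 in D308V (adjusted p = 4.51e-10) and 1.03 in R343W (adjusted p = 9.06e-11, limma). ANGPTL4, a secreted inhibitor of lipoprotein lipase under the level filter, was at 1.84, 1.9 and 1.33 TPM in D308N, 1.73, 2.03 and 1.61 in D308V and 1.62, 1.4 and 1.89 in R343W, and at 0.543, 0.655 and 0.732 in RPL3L-WT. With no filter its log2 fold change was 0.66, 0.71 and 0.63 (adjusted p of 0.00323, 0.00167 and 0.00452, limma). ADM was higher in R343W (0.52) and D308V (0.28) and lower in D308N (-0.15).

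The collagen prolyl hydroxylases moved the other way. P4HA2 was at 85, 73 and 59.8 TPM in RPL3L-WT and 27.7, 30.1 and 30.5 in D308N (log2 fold change -0.96, SE 0.059, adjusted p = 8.49e-12). It was at 32.2, 30.2 and 33.2 in D308V and 41.8, 41.7 and 41.1 in R343W, log2 fold changes of -0.85 and -0.48. P4HA1 changed by -0.82, -0.77 and -0.46. Its R343W libraries (61.7, 59.1 and 54.7 TPM) overlapped those of RPL3L-WT (62.8, 58.3 and 85.7 TPM). The 9 fibroblast markers, which include the collagens COL1A1, COL1A2 and COL3A1, summed to 2323 to 2517 TPM in RPL3L-WT. The sum was 1559 to 1699 in D308N, 1349.7 to 1557 in D308V and 1215 to 1342 in R343W. COL1A1 had the highest mean of the 9 (1116 TPM, then COL1A2 at 405), and the sum does not show how each marker moved. The 6 smooth muscle markers summed to 437 to 654 TPM in RPL3L-WT and to 188 to 229 in those 3 lines; MYH11 and DES were under 1 TPM in all libraries. In the knockdown the fibroblast sum was higher, 2279.9 to 2529 TPM in shRPL3 against 1985 to 2208 in shScramble, while P4HA1 and P4HA2 were lower. The part of these markers in the result was not tested.

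PGK1 was at 349, 351 and 347 TPM in D308N, 382, 392 and 390.5 in D308V and 435, 436 and 431 in R343W. Against 430.4, 414 and 529.7 in RPL3L-WT, the log2 fold changes were -0.60, -0.45 and -0.29. In R343W the PGK1 libraries overlapped those of RPL3L-WT. LDHA was lower by 0.26, 0.35 and 0.19, the last lost without RPL3L-WT 3. PFKFB4 was at 27.9, 30.6 and 30.0 TPM in D308N (log2 fold change 0.80, SE 0.13, adjusted p = 6.6e-05), and all 3 libraries were above RPL3L-WT. ANKRD37, a small ankyrin repeat protein induced by HIF, was at 5.79, 5.3 and 4.94 TPM in D308V (log2 fold change -0.74, SE 0.15, adjusted p = 0.000631), a call lost without the kind term. CA9 in D308V was lower by 0.96 with overlapping groups, and the call was lost without the kind term or with the first-kind libraries only. In R343W, CA12 was at 9.75, 8.76 and 8.68 TPM (log2 fold change 0.59, SE 0.13, adjusted p = 0.00118). NDRG1 was at 70.4, 60.3 and 67.4 TPM (log2 fold change 0.59, SE 0.16, adjusted p = 0.00659), lost without RPL3L-WT 3. HK2 (0.55), ADM (0.52), HK1 (0.40), MIF (0.49) and PFKFB3 (0.35) were higher in R343W as well, and PDK1 and SLC2A1 were not called in any of the 3 lines.

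**Figure D4:**
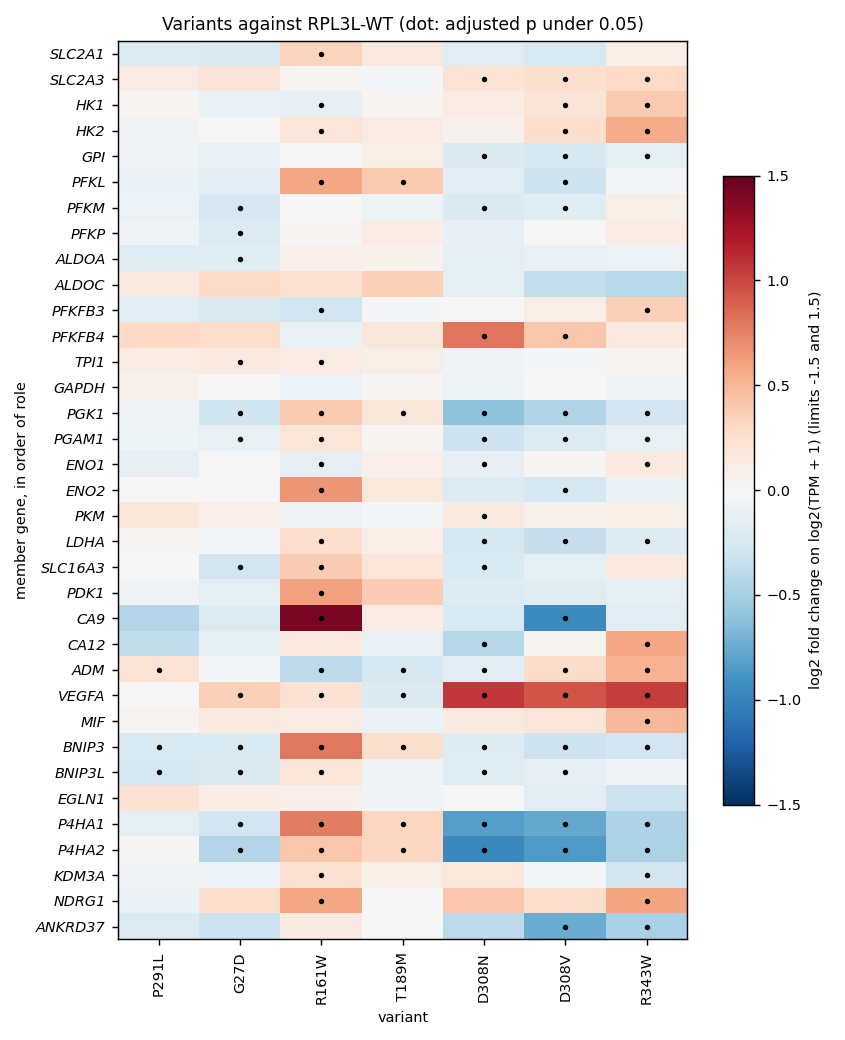
Log2 fold change of the 35 tested members (rows) in each variant against RPL3L-WT (columns), on a colour scale limited to -1.5 and 1.5, with a dot where the adjusted p is under 0.05. VEGFA is red in D308N, D308V and R343W, P4HA1 and P4HA2 are blue there and red in R161W, and P291L has 3 dots.

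The 2 changes of the same aspartate, D308N and D308V, were compared directly. D308N had 6 members lower and 1 higher than D308V, where 8.26% of all genes were called, 4.19% lower and 4.07% higher. ADM was at 124, 131 and 133 TPM in D308N and 173, 174 and 178 in D308V (log2 fold change -0.44, SE 0.046, adjusted p = 7.78e-07). CA12 was at 4.59, 3.49 and 3.96 TPM in D308N and 5.95, 6.16 and 5.65 in D308V (log2 fold change -0.47, SE 0.12, adjusted p = 0.012). The groups overlapped in neither gene. PGK1 (-0.15), HK2 (-0.19), ENO1 (-0.13) and PGAM1 (-0.10) were lower and PFKFB4 (0.39) was higher. CA9 was higher in all D308N libraries but was not called (0.73, adjusted p = 0.0592). VEGFA differed by 0.11 (adjusted p = 0.31). The count fell to 4 without D308N 1, D308N 3 or D308V 3, to 3 without D308V 2, and to 2 with these groups only.

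The factors above these genes were followed by name (the plot of RPL3, HIF subunits and TXNIP). HIF1A RNA was at 226, 259 and 237 TPM in shScramble and 207, 221 and 224 in shRPL3 and was not called. It was lower in R343W, at 167, 168 and 134 TPM, by 0.48 against shRPL3 and 0.28 against RPL3L-WT, and in D308N by 0.25 against shRPL3. EPAS1 was at 29, 26 and 26.5 TPM in shScramble, 23.2, 26.2 and 26.1 in shRPL3 and 24.1, 23.4 and 30.0 in RPL3L-WT. It was at 51.3, 50.3 and 49.9 TPM in D308N, 52, 49.8 and 54.6 in D308V and 61, 53.9 and 58.2 in R343W, above every library of the other groups. The log2 fold changes against RPL3L-WT were 0.94, 0.99 and 1.13 (adjusted p of 7.79e-07, 4.36e-07 and 4.65e-08, limma), and G27D was higher by 0.49. D308N, D308V and R343W are also the lines with the highest VEGFA and ANGPTL4. In the same lines GPI, PGK1, PGAM1, LDHA, BNIP3, P4HA1 and P4HA2 were called lower than in RPL3L-WT with the kind term. The part of EPAS1 in either was not tested.

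ARNT, the shared partner, was lower in shRPL3 than in shScramble (-0.20) and was not called in any of the other 13 comparisons. VHL was lower in RPL3L-WT (-0.27), P291L (-0.25), D308N (-0.28), D308V (-0.29) and R343W (-0.21) than in shRPL3; with median-ratio scaling only the calls in D308N and D308V held. TXNIP, which limits glucose uptake and rises with glucose, was at 1.05, 0.845 and 1.28 TPM in shScramble and 125, 127 and 113 in shRPL3, a log2 fold change of 5.90. Against RPL3L-WT it was higher in D308N (1.01) and D308V (0.96), and lower in R161W (-0.92), where it was at 43.3, 42.5 and 48 TPM.

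**Figure D5:**
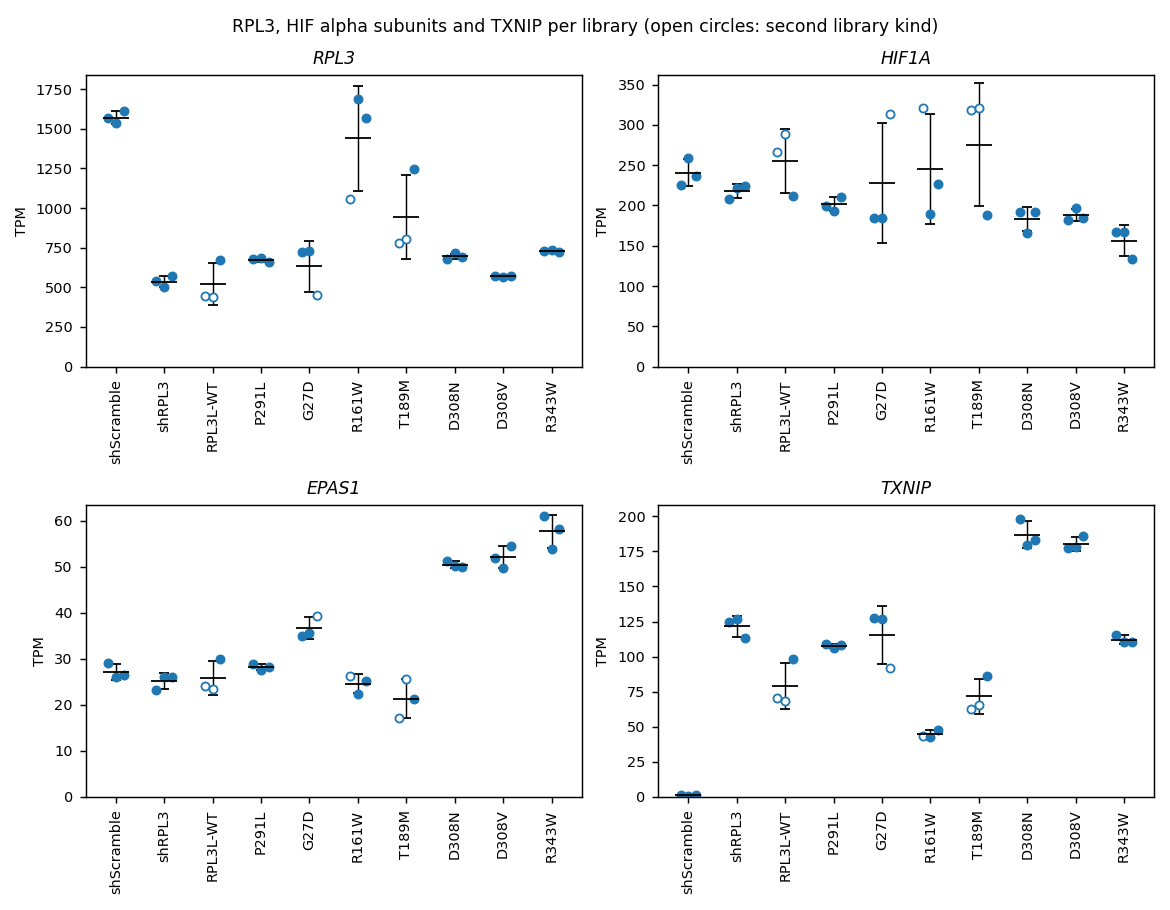
Level in TPM of RPL3, HIF1A, EPAS1 and TXNIP in every library by group, with mean and SD of 3; open circles are second-kind libraries, and each axis starts at 0. EPAS1 lies between 49.8 and 61.0 TPM in D308N, D308V and R343W and reaches 39.4 TPM at most elsewhere, and HIF1A is higher in second-kind than in first-kind libraries of the same group.

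A further list of 66 glycolysis and HIF genes had 54 tested. In shRPL3 against shScramble 19 were lower and 17 higher (median -0.09), beside 24.5% and 24.4% of all genes. For the counts of this list that follow, the shares of all genes called are those given above for the same comparisons. TXNIP had the widest change. PLOD1, a collagen lysyl hydroxylase, was at 201, 183 and 176 TPM in shScramble and 96.7, 89.6 and 98.9 in shRPL3, a log2 fold change of -0.97. The HIF-induced repressor BHLHE40 was at 36.8, 33.1 and 35.1 TPM in shScramble and 17.9, 17.6 and 16.9 in shRPL3 (-0.96). In RPL3L-WT against shRPL3, 16 were lower and 4 higher, with BHLHE40 at 9.15, 7.83 and 9.47 TPM (-0.88), KDM4B at -0.70 and PPFIA4 at -0.68. Against shRPL3, P291L had 24 lower and 2 higher, D308N 29 and 7, D308V 26 and 7, and R343W 27 and 7. AK4, a mitochondrial adenylate kinase, was lower by 0.79 in P291L, 0.86 in D308V and 0.91 in R343W, and PPFIA4 by 0.98 in D308N and 1.33 in D308V.

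In the libraries labelled R161W 22 of the 54 were higher and 8 lower than in RPL3L-WT, among them BHLHE40 (0.89), DDIT4 (0.82) and VLDLR (0.81). In D308N 13 were lower and 11 higher. LOX, which cross-links collagen, was at 70.6, 66.1 and 93.2 TPM in RPL3L-WT and 40.6, 39.1 and 39 in D308N (-1.15). In D308V 16 were lower and 10 higher, with LOX at -0.90 and ARNT2, a paralog of ARNT, at 1.01. In R343W 18 were lower and 14 higher, with BHLHE41 at 1.71, ARNT2 at 0.96 and PDP1, a pyruvate dehydrogenase phosphatase, at 0.80. In P291L 3 were lower and none higher (0 of 54, limma), in G27D 6 and 3 (LOX -0.79, STC2 -0.56), and in T189M 10 were higher and none lower (0 of 54, limma). In D308N against D308V 6 were lower and 1 higher.

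Over the 24 first-kind libraries the members' levels were compared pair by pair, as a description of libraries that share groups and scale. The median Pearson r over 595 pairs was 0.40, with 118 pairs over 0.8 and 166 under 0. PGK1 went most closely with PGAM1 (r = 0.99) and P4HA1 (0.98). With BNIP3 the highest were PDK1 (0.96), CA9 (0.95), PFKL (0.94) and PGK1 (0.94). PKM ran against BNIP3 (-0.89), and VEGFA (-0.37), ADM (-0.49), HK1 (-0.41) and PFKFB4 (-0.36) were also negative. P4HA2 ran against VEGFA (-0.83).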

How the data were processed

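The authors deposited 1 table of TPM values (a level per transcript length and library); the submitters' processing notes name kallisto, Bowtie, bedtools and bcl2fastq 2.19, and for their roles, the index and the genome build nothing is given in the sources used here. Of 42 samples the 30 whole-cell libraries were used and 12 nuclear rRNA libraries were not. Of 60612 entries 6 construct sequences were left out. Each library sums to the same total, so read depth is unknown and the number of libraries limits precision. Genes with a mean of at least 1 TPM (14426) were fitted on log2(TPM + 1) with limma 3.58.1 (R 4.3.3; lmFit, eBayes with trend and robust) in 1 model over 10 groups with a term for library kind, two-sided. Benjamini-Hochberg adjustment ran over all tested genes within a comparison, with a threshold of 0.05. The kind was assigned from the first principal component of 298 pseudogenes (widest gap 15.0, next 1.04). Values per library are given for called members whose groups do not overlap and whose log2 fold change is at least 0.5 in size (the first 5 each way in the first 2 comparisons, 3 in others), for the highest and lowest members and for PFKFB3, CA9, VEGFA, LDHA, SLC2A1 and PDK1. For the further list at most 4 genes a comparison and HIF1A, EPAS1, ARNT, VHL and TXNIP were named, except 1 gene that is not reported here; other values were picked after they were seen. The members, the lists and the kind term were chosen with earlier results of these data known. Tested on simulated data for shRPL3 against shScramble over 14426 genes, the fit recovered 64.5% of changes of 0.5 (log2), 90% of 1 and 94.1% of 2, with 8 false calls. For D308N against RPL3L-WT, where the kinds differ, the shares were 59.7%, 91.4% and 94.1%, with 4 false calls. The simulation changed only 200 genes in 1 group and took the kind effect as additive, so it does not test that term. Alternatives were no kind term, first-kind libraries only, a replicate block, a pseudocount of 0.1, no filter, median-ratio scaling, 2 groups only and leaving out each library. Tables and figures used Python 3.11.15, numpy 2.4.6, pandas 2.3.3 and matplotlib 3.10.9. Promoter sequences are from RefSeq, GRCh38.p14.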

Additional observations from a re-analysis of the deposited data

Results flagged for a closer look

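The construct reporter EBFP2 was at 433.8 TPM in shRPL3 replicate 3, a line whose labels give no RPL3L construct. It was at 0 in the shScramble libraries and in shRPL3 replicates 1 and 2. The comparisons with shRPL3 are given with and without that library in the results.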

How the results depend on the processing

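Counts of members called kept within 1.5 times under a pseudocount of 0.1 and median-ratio scaling in all 14 comparisons, and no member called in both fits changed direction in any alternative run. Of 260 calls of members over the 14 comparisons, 15 had the other sign without the kind term, 0 of them past the threshold in limma, and 0 with first-kind libraries only. Without the kind term the count went from 12 to 3 in G27D, 22 to 14 in R161W, 7 to 1 in T189M, 17 to 11 in D308N and 19 to 8 in D308V against RPL3L-WT, from 25 to 15 in P291L and 25 to 16 in D308V against shRPL3, and from 7 to 2 in D308N against D308V. With first-kind libraries only, where RPL3L-WT has 1 library assumed to vary like the others, it was 7 in G27D, 0 in T189M (limma; 9 at an unadjusted p under 0.05) and 10 in D308V. For D308N against D308V it was 4 without the filter and 2 with those groups only. The causes were not tested.

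Leaving out 1 library gave 26 to 28 called members in shRPL3 against shScramble and 13 to 21 in RPL3L-WT against shRPL3, the 13 without RPL3L-WT 3. Against RPL3L-WT the ranges were 2 to 3 in P291L, 9 to 12 in G27D, 17 to 21 in R161W, 6 to 9 in T189M, 13 to 16 in D308N, 14 to 19 in D308V and 15 to 19 in R343W. Against shRPL3 they were 22 to 26 in P291L, 25 to 28 in D308N, 21 to 22 in D308V and 24 to 28 in R343W, and D308N against D308V gave 3 to 5. Of 923 alternative values for 76 named results 880 stayed on the same side of the threshold, 43 lost the call and 0 reversed. All 76 were picked because they were called with the kind term, many also for size and no overlap. This count therefore does not stand for all 260 calls.

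Replicate numbers are shared between groups, but same-numbered libraries did not deviate together: correlations ran from -0.32 to 0.32 and 1 pair, in G27D, was over 0.1. With the replicate block the counts were 28 in shRPL3 against shScramble, 23 in RPL3L-WT against shRPL3 and 5 in D308N against D308V, and all 14 stayed within 1.5 times.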
